A study of Caenorhabditis elegans with 2 samples.

Results

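The autosomal coding exon sites of ATHP-1 are described here, as found by ChIP-seq (immunoprecipitation of chromatin followed by sequencing) in whole worms of Caenorhabditis elegans. ATHP-1 is named for an AT-hook and a PHD finger. Of 30000 regions in the list the authors made from both replicates together, the 5000 with the highest signal score were taken, and 597 of those 5000 were autosomal coding exon sites. They were chosen by 2 values, the pooled signal score and the position of the summit. The summit had to lie in annotated coding sequence, outside promoter windows, which covered the 500 bp before and the 200 bp after each protein-coding 5′ end, and more than 200 bp from tRNA, snoRNA and snRNA genes. The score and the class of each site are therefore descriptions and not findings.

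All animals belonged to 1 group with 2 biological replicates. They were strain OP685, of genotype unc-119(tm4063) III; wgIs685. The integrated transgene wgIs685 is directed at athp-1, and the strain stably expresses ATHP-1 with a GFP-FLAG tag at its carboxy terminus. Both sexes were pooled, and the worms were collected as young adults at 64 hours after they had been synchronized as starved first-stage larvae. The tagged protein was captured from whole worms with an antibody against GFP, so binding in the germline and in somatic tissues cannot be told apart. Each replicate was set against a control alignment, the labels name the same possible control for both, and no untagged or second group was analysed here. The read depth is unknown, and with 1 group of 2 replicates no test between conditions was possible. Sites are not replicates of one another, so shares and medians are given beside the same measure over a stated background, and beside the value from each replicate's own list where that shows the error.

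An AT-hook is a short basic motif that lies in the minor groove of AT-rich DNA, and PHD fingers are zinc-binding modules that often read the tail of histone H3. ChIP signal at a coding exon does not show that a protein contacts those bases, since crosslinking also captures proteins held there by chromatin or by transcription complexes. In the compact worm genome the last coding exon, the 3′ UTR and the next gene often lie close together, which makes the place of a site along its host gene informative.

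The windows of 100 bases at the summits of strong coding exon sites on chromosomes II, III and V are shown first, because their base composition bears on a protein with an AT-hook. Each is read 5′ to 3′ on the strand of its host gene, from the RefSeq assembly of WBcel235 (ce11), and capitals mark every run of 6 or more A or T bases. None of these windows overlaps an annotated UTR. The window in mdt-26, which encodes a subunit of the Mediator complex, is chrII:5661717-5661816 on the plus strand; 65 of its 100 bases are coding and the others are intronic. The window in dos-3, which encodes a DOS-domain ligand of the Notch pathway, is chrIII:835882-835981 on the minus strand. The window in best-18, a bestrophin channel gene, is chrIII:10214635-10214734 on the plus strand. The windows in pqn-48, which encodes a protein with a glutamine- and asparagine-rich domain, in F58A4.6 and in C01G10.9 are chrII:4042890-4042989, chrIII:9615181-9615280 and chrV:15083819-15083918, all on the plus strand. The windows in phlp-2, chrIII:4216538-4216637, and in kel-1, chrII:11690937-11691036, both on the plus strand, had the lowest and the highest G + C content among those of the 50 strongest sites whose windows lie on chromosomes II to V and overlap no annotated UTR.
mdt-26: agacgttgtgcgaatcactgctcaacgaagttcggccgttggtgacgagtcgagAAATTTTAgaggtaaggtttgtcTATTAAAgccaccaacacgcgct
dos-3: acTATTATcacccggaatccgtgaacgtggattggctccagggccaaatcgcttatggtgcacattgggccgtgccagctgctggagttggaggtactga
best-18: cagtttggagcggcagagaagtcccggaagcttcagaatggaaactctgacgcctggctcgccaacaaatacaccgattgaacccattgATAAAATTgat
pqn-48: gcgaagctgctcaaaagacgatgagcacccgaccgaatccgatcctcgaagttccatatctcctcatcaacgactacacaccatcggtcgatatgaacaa
F58A4.6: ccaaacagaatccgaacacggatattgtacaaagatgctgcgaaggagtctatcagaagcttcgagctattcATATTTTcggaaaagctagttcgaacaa
C01G10.9: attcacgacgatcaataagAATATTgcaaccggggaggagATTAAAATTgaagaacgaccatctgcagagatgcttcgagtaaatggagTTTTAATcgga
phlp-2: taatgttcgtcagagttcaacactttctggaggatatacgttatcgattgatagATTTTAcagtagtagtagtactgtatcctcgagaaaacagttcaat
kel-1: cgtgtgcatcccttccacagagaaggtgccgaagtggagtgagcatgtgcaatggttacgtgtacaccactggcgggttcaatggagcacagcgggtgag

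The windows in pqn-48 and kel-1 held no run of 6 A or T bases, and the longest run in any of these 8 windows was 9 bases, in C01G10.9. Their G + C content was 48% in mdt-26, 55% in dos-3, 48% in best-18, 50% in pqn-48, 41% in F58A4.6, 40% in C01G10.9, 35% in phlp-2 and 57% in kel-1. Windows above and below an even base composition were thus both present among the strongest coding exon sites.

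The signal of coding exon sites was modest within the list that chose them. Pooled scores ran from 63.4 to 523 with a median of 74.6, beside a median of 89.8 for the 3837 other autosomal sites among the 5000. The 492 autosomal intron sites were close to the coding exon sites, with a median of 76.3. Only 9 coding exon sites exceeded a score of 200 and 91 exceeded 100. The strongest was in mdt-26, which had scores of 274 in replicate 1 and 248 in replicate 2 and 523 in the pooled list, where it ranked 15. Its region was 714 bp wide and only 10.1% of it was coding, since coding exon 2 of mdt-26 is 72 bp long. The site in dos-3 had scores of 209 in replicate 1 and 272 in replicate 2 and 482 pooled, at rank 19. Both replicates placed these 2 sites far above the median coding exon site, whose score was 39.9 in replicate 1 and 39.5 in replicate 2. The next were sites in lmd-2, which encodes a protein with a LysM domain, at 157 and 126 in replicates 1 and 2, in suro-1 at 121 and 150, and in best-18 at 114 and 152. A second site in dos-3 ranked 974 with scores of 68.1 and 79.0, and its region overlapped that of the first.

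Few coding exon sites were among the strongest regions of both replicates. A summit within 100 bp among the 5000 strongest regions of both replicates was found for 144 coding exon sites (24.1%), against 42.2% over all 5000 pooled regions and 44.8% over the other autosomal sites. Autosomal intron sites had a similarly low share, 25.6%. The lowest scores among the 5000 strongest were 35.8 in replicate 1 and 37.6 in replicate 2, which sum to 73.4, close to the median pooled score of the coding exon sites. Since pooled scores were near the sum of the replicate scores, a low pooled score itself lowers the matched share. How much of the difference this accounts for was not tested. A further 191 had one only in replicate 1, 144 only in replicate 2, and 118 in neither. The list of regions that the authors called reproducible held 76 coding exon sites (12.7%), against 33.0% of all 5000; it consists of the 1649 pooled regions of highest score, so this share restates their ranks. Over the full lists of 30000, 450 sites had a matched summit in both replicates and 8 in neither, among them the site in W02D7.6, which ranked 1157. The Spearman correlation between the replicates was 0.079 over the 450. It was 0.451 over the 3113 other autosomal sites matched in both. Both sets were cut at the same pooled score, which itself lowers the correlation among sites near the bound. Coding exon sites lay nearer to it, with pooled quartiles of 67.5 and 87.7 over all of them, against 73.1 and 125 for the other autosomal sites. How much of the contrast in correlation the cut sets was not tested. The site in rsp-8, which encodes an SR splicing protein, ranked 470 with a score of 113 in replicate 2 and had no matched summit in replicate 1. The largest rank differences put ZK370.4, usp-14, a ubiquitin protease gene, and ncl-1, an NHL-domain repressor of rRNA and protein synthesis, high in replicate 1, at 47.0 to 49.5 there and 16.4 to 17.1 in replicate 2. They put glrx-5, a glutaredoxin gene, dtmk-1, a thymidylate kinase gene, and fbxa-182, an F-box gene, low in replicate 1, at 16.3 to 17.2, and high in replicate 2, at 46.3 to 81.4.

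**Figure D1:**
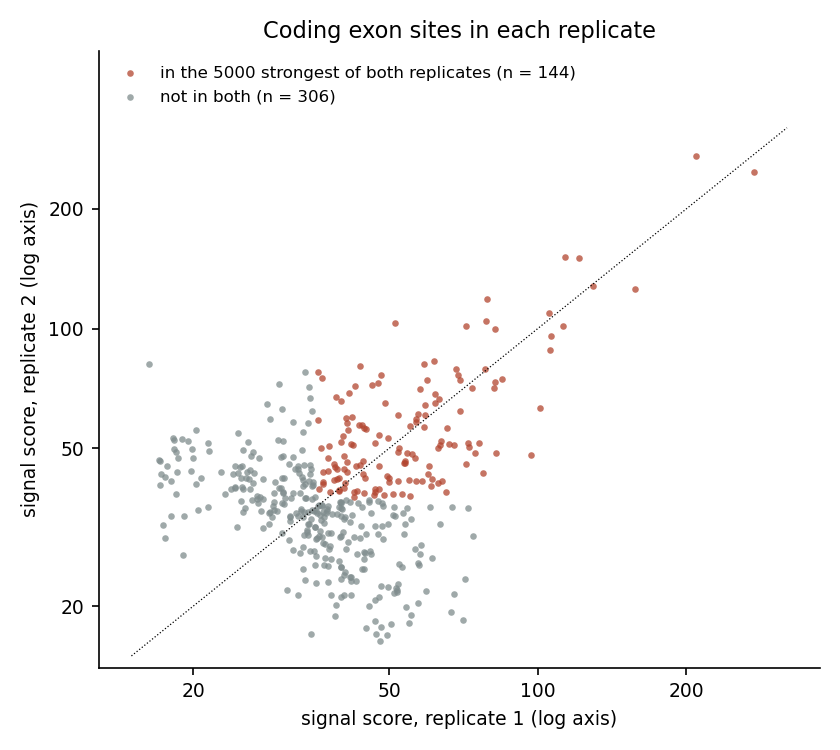
Signal score in replicate 1 (x axis) and replicate 2 (y axis), both log axes, for the 450 coding exon sites with a matched summit in both lists; red points (n = 144) are in the 5000 strongest of both replicates, grey points are not, and the dotted line marks equal scores. The pooled score was close to the sum of the 2 replicate scores (median ratio 1.01), so the empty lower left corner is set by the rule, and the sites above 100 in both replicates lie near the line.

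Scores at the bound of the 5000 were nearly continuous. The 5 coding exon sites just inside it lay in spd-2, a centrosome gene, col-153, C04F5.8, Y71G12B.13 and F54C9.11, with pooled scores of 63.8 to 63.4, and the 5 just outside lay in F59B1.2, mcrs-1, set-16, mag-1 and idpc-7, all at 63.4. The deposited −log10 q-values of the coding exon sites ran from 1.29 to 3.44, and 55 sites were tied at that maximum.

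Coding exon sites lay toward the 3′ ends of their host genes. In the last coding exon were 232 sites (38.9%), against 13.1% of the coding bases of the same host transcripts and 16.2% of all autosomal coding bases that were eligible under the rule. The same rule on replicate 1's own list gave 254 of 770 sites in the last coding exon (33.0%), and on replicate 2's own list 223 of 584 (38.2%); both stood above the share of bases by far more than they differed from each other. Internal coding exons held 333 sites (55.8%) against 84.1% of host coding bases, first coding exons 24, and genes with a single coding exon 8. Per megabase of eligible coding sequence this came to 81.3 sites in last, 23.6 in internal and 42.5 in first coding exons, and 79.3 in genes with a single coding exon, on 8 sites. Both bases and sites inside promoter windows were left out of these counts, so the loss of first exons to the rule is in the background too.

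The density of sites was highest next to the stop codon. Fewer than 200 bp from the end of the coding sequence lay 189 sites (31.7%), against 9.55% of host coding bases, and 19.9% of sites lay 2000 bp or more away, against 46.2% of host coding bases. The density was 82.2 sites per megabase under 200 bp from that end, 47.7 from 200 to 500 bp, and 20.7 to 26.1 beyond. Replicate 1's own list had 25.5% of its sites under 200 bp, and replicate 2's own list 29.8%, against 13.0% of all eligible coding bases. When each coding sequence was cut into 10 equal parts, the part nearest the stop codon held 132 sites (22.1%) on 10.7% of host coding bases and the next 93 sites (15.6%) on 10.9%. The part nearest the start held 16 (2.68%) on 4.77%.

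**Figure D2:**
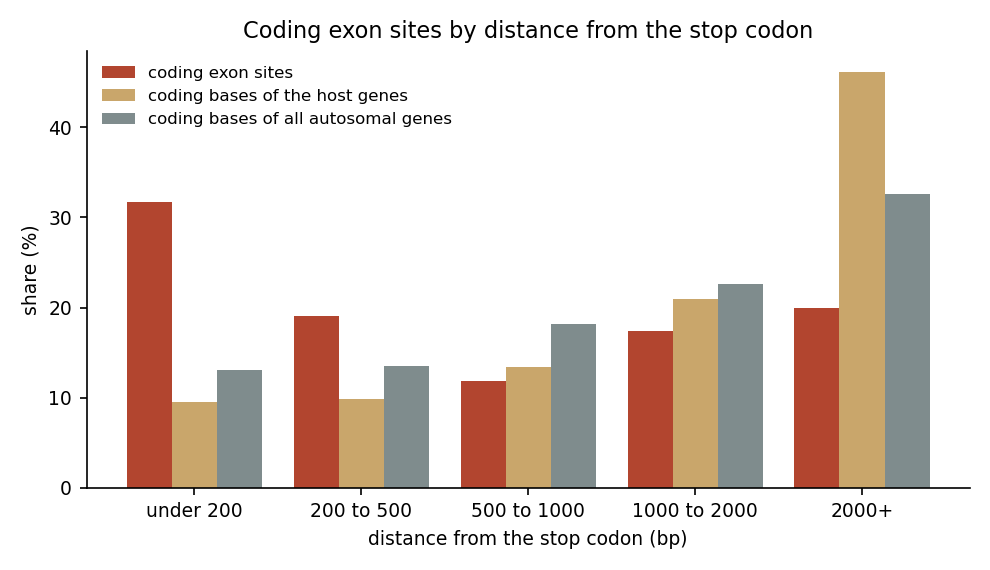
Share (y axis, percent) of the 597 coding exon sites, of the eligible coding bases of their host genes and of the eligible coding bases of all autosomal genes, by distance from the end of the coding sequence in bp (x axis). Sites exceed both kinds of bases in the 2 classes nearest the stop codon, 31.7% against 9.55% and 13.0% in the first, and fall below both beyond 500 bp.

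Sites of higher score lay nearer the stop codon. Of the 20 coding exon sites with the highest pooled score, 18 were in the last coding exon, at 22 to 181 bp from the end of the coding sequence; the exceptions were mdt-26, at 2600 bp, and Y41E3.22, in coding exon 2 of 3 and 229 bp away. The 18 sites lay in dos-3, lmd-2, suro-1, best-18, lsm-7, pqn-48, C01G10.9, chmp-7, F58A4.6, C36E8.4, madf-10, tmem-107, T05C12.8, rsp-8, stdh-1, idpp-2, Y23H5A.2 and zig-7. Among their products are an Sm-like RNA-binding protein (lsm-7), an ESCRT-III protein (chmp-7), a protein of the ciliary transition zone (tmem-107), a steroid dehydrogenase relative (stdh-1) and a secreted immunoglobulin-domain protein (zig-7). The regions of 15 of the 20 sites included the end of the coding sequence, so part of the enriched DNA there was 3′ UTR. With the coding exon sites in 4 equal groups by score, from highest to lowest, the share in the last coding exon was 58.7%, 41.6%, 29.5% and 25.5%. The share under 200 bp from the stop codon was 48.0%, 34.9%, 24.8% and 18.8%.

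**Figure D3:**
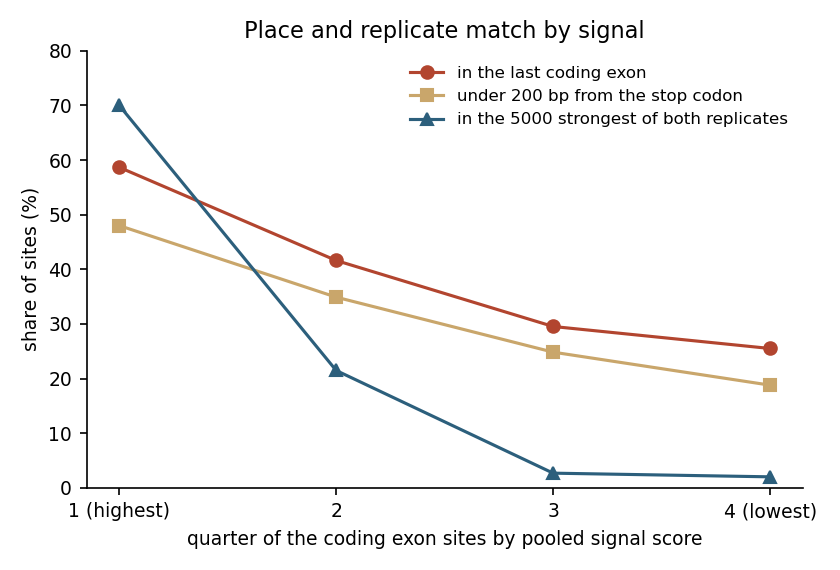
Share of coding exon sites (y axis, percent) in the last coding exon, under 200 bp from the stop codon, and matched in the 5000 strongest of both replicates, in 4 equal groups by pooled score from highest to lowest (x axis; 150, 149, 149 and 149 sites). The first 2 shares are highest in the first group, at 58.7% and 48.0%. The matched share is 70.0% in that group, and a low pooled score itself lowers it. The last coding exon holds 25.5% of the lowest group, still above 13.1% of host coding bases.

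Beyond the stop codon, 3′ UTRs had a higher density of sites than coding exons. Autosomal 3′ UTRs outside promoter windows held 277 of the 5000 sites, or 127 per megabase, close to 130 in promoter windows, against 33.6 in coding exons as a whole, 20.3 in introns and 39.0 in intergenic sequence. The X chromosome had 53 coding exon sites, or 17.1 per megabase, of which 14 (26.4%) were in the last coding exon. Among the autosomes the density ran from 27.3 per megabase on V to 45.8 on III, and the share in the last coding exon from 36.7% on III to 42.1% on V.

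Neighbouring genes were compared because a site near a 3′ end can also be near the next gene. The next gene downstream pointed toward the host, a convergent pair, for 115 of 228 hosts with a site in the last coding exon (50.4%), against 43.4% of the 10670 autosomal genes with at least 100 bases of last coding exon eligible under the rule. The median gap to that next gene was 1984 bp, against 1146.5 bp. The rule drops summits in the 500 bp before a 5′ end, so a close next gene on the same strand removes sites near the stop codon. The background needs only 100 eligible bases anywhere in the last coding exon. Both contrasts are therefore partly set by the rule, and how far was not tested. The nearest promoter window belonged to a gene other than the host for 111 of the 232 last-exon sites (47.8%). For the 365 other sites the count was 74 (20.3%). A last coding exon lies farther from its own gene's 5′ end than the other exons do, so this contrast is partly set by position. No share over eligible last-exon bases was computed. Of the 20 strongest sites, 18 were in the last coding exon, and another gene's window was the nearest for 13. These were the windows of zip-2, pck-2, dnc-1, rpn-11, C01G10.10, pri-1, C06B3.6 and Y41E3.1. The others were those of the ribosomal protein genes rpl-32, rpl-30 and rpl-41.2, the β-tubulin gene tbb-2 and the chaperonin gene cct-1. All these windows lay 225 to 2114 bp from the sites. The sites were upstream of the 5′ ends of dnc-1, C01G10.10 and pri-1, and downstream of those of the other neighbours. The median distance from the nearest promoter window was 939 bp for last-exon sites, 790 bp for the others and 518 bp for the 20 strongest. No such distance was computed over eligible last-exon bases.

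For all 597 sites the distance from the nearest promoter window had a median of 846 bp, with quartiles at 364 and 1665 bp. Under 200 bp from a window lay 81 sites (13.6%). A promoter site of the same 5000 lay within 1 kb of 53 coding exon sites (8.88%), and in 34 of these it had the higher score. The deposited regions were 420 bp wide in 578 cases, and the median region was 74.8% coding. The summit was in coding sequence and in no other annotated feature for 544 sites.

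The host genes numbered 556, or 3.22% of the 17242 autosomal protein-coding genes. One site was found in 519 hosts, 2 in 33 and 3 in 4 genes. The 4 genes with 3 sites were sca-1, the calcium pump of the endoplasmic reticulum, mak-1, a MAP kinase-activated protein kinase gene, set-16, an MLL-family histone H3 lysine 4 methyltransferase gene, and F22G12.5. The sites in mak-1 had pooled scores of 118.6, 104 and 75.1, and those in set-16 80.6, 71.5 and 68.6. A site in their own promoter window was found for 140 hosts (25.2%), against 11.8% of all autosomal protein-coding genes. Hosts had longer coding sequences, with a median of 1299 bases against 987. In 4 equal groups of genes by coding length, from shortest to longest, the share of hosts with a promoter site of their own was 25.4%, 12.9%, 22.9% and 32.1%, against 10.2%, 9.50%, 9.58% and 18.1% of all genes in the group. Hosts exceeded all genes in each group, with the highest ratio in the shortest. Sites in hosts with a promoter site were in the last coding exon in 31.4% of cases, against 41.5% in hosts without one.

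Cuticle collagens had the largest number of hosts of the gene lists, though shorter lists had higher shares. These genes encode the short triple-helical proteins, built of regular repeats of glycine and proline, from which the worm's cuticle is assembled at each moult. Of 129 listed autosomal members 21 had a coding exon site (16.3%), against 3.22% of all autosomal genes. Only 2 of the 129 had a site in their own promoter window (1.55%, against 11.8%). The list does not hold every cuticle collagen gene: dpy-13, also a host, was counted among the other hosts. The same rule found 21 collagen hosts in replicate 1's own list and 21 in replicate 2's own list, and 7 were in both, 33.3% of each. Over all genes, 180 hosts were in both lists, 25.3% of the 711 in replicate 1 and 33.1% of the 544 in replicate 2. Their density was 202 sites per megabase of eligible coding sequence, against 33.8 over all autosomal genes counted in the same way; 8 other lists, with 1 to 6 sites each, had a higher density, led by ribosomal proteins at 316 and tubulins at 275. Repeats shared by paralogous collagens can split reads between genes. At least 1 word of 30 bases was shared with another place in the genome by 5 of the 21 windows (23.8%). The share was 3.13% for the windows in other hosts. No collagen window had most of its words shared, and the effect of read assignment was not tested.

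The collagen sites were mid-list in strength. Pooled scores ran from 63.6 to 112 with a median of 74.0. The highest was in col-88, with 55.1 in replicate 1 and 56.7 in replicate 2. The site in col-130 had 39.0 in replicate 1 and 67.1 in replicate 2, and that in col-139 had 34.3 and 57.8. Only 5 of the 21 were matched in the 5000 strongest of both replicates, in col-88, col-130, col-107, col-81 and col-109, while 17 had a matched summit in both full lists; those in col-108, col-111, col-105 and col-153 did not. In the last coding exon lay 13 of the 21 sites, but only 3 were under 200 bp from the stop codon, a smaller share (14.3%) than in other hosts (32.3%). The last coding exon can make up most of a collagen gene, with 756 of 897 coding bases in col-130 and 726 of 930 in col-139. The shares of collagen coding bases in these places were not computed, so neither count has a background. The G + C content of the 21 sites ran from 51% to 77% with a median of 61%, beside 56.3% for the eligible coding bases of all listed cuticle collagens.

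The windows of the 3 highest collagen sites outside UTRs are shown because the repeat of the family is visible in them; they were chosen after their values were seen. They are chrIII:41427-41526 on the plus strand for col-88, chrIV:12427951-12428050 on the minus strand for col-130 and chrV:4653105-4653204 on the minus strand for col-139, from the same assembly and read on the gene's strand. Capitals mark in-frame GGN codons, which encode glycine.
col-88: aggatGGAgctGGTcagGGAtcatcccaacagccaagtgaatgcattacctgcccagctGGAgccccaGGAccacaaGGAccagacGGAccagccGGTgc
col-130: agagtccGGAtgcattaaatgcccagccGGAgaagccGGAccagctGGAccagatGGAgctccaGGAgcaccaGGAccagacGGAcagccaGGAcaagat
col-139: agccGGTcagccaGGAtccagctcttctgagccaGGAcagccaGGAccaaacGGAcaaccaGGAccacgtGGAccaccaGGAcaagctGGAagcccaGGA

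GGN codons made up 8 of 32 whole codons in col-88, 9 of 33 in col-130 and 10 of 33 in col-139, and CCN codons, which encode proline, 6, 7 and 9. The windows were GC-rich, at 61% in col-88, 60% in col-130 and 62% in col-139. The longest run of A or T was 4 bases in col-88, 7 in col-130 and 3 in col-139.

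Housekeeping gene lists also held hosts, in shares above and below that of all genes. Over all autosomal genes, 3.22% were hosts in the pooled list, 4.12% in replicate 1 and 3.16% in replicate 2, and 11.8% had a promoter site. Of 27 heat shock and chaperonin genes, 6 were hosts (22.2%) and 11 had a promoter site of their own (40.7%). The hosts were cct-1, hsp-110, hsp-12.2, hsp-60, hsp-90 and cct-5, and the same rule gave 7 hosts in replicate 1 and 8 in replicate 2, with 4 in both. The highest of these sites was in cct-1, at 44.3 in replicate 1, 46.3 in replicate 2 and 101 pooled. Translation factors had 6 hosts of 36 in the pooled list and 6 in each replicate, with 3 in both; eef-2, elongation factor 2, led with 58.2 and 41.4 in replicates 1 and 2. Ribosomal protein genes had 5 hosts of 76, rpl-33, rpl-9, rps-0, rpl-19 and rpl-28, although 44 of the 76 had a promoter site. Tubulins had 2 hosts of 10, tbb-2 and the γ-tubulin gene tbg-1. Below the share of all genes were mitochondrial ribosomal proteins, with 1 host of 70 (1.43%), and histones, with 2 of 68 (2.94%). Aminoacyl-tRNA synthetases, with 1 host of 32 (3.1%), were near it.

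Lists of oocyte and embryo genes were small, and their counts changed between replicates. So did those of other lists such as histones, with 4 hosts in replicate 1 and 0 in replicate 2. The shares over all autosomal genes were 3.22% in the pooled list, 4.12% in replicate 1 and 3.16% in replicate 2. Of 14 eggshell and egg activation genes, 5 were hosts in the pooled list: egg-1, a receptor-like protein on the oocyte surface, the chitin synthase gene chs-1, the chondroitin proteoglycan gene cpg-1, perm-4 and egg-6. Their pooled scores were 64.0 to 71.7, all near the bound, and the rule gave 4 eggshell hosts in replicate 1 and 1 in replicate 2, with none in both. P granule genes had 3 hosts of 14, the Vasa-like helicase gene glh-1, the Argonaute gene csr-1 and the Piwi gene prg-1. Replicate 1's own list gave 7 P granule hosts and replicate 2's own list 2. The site in glh-1 was the best supported of the 3, at 57.6 in replicate 1 and 70.4 in replicate 2. Oocyte RNA-binding protein genes had 3 hosts of 20, spn-4, puf-5 and oma-1; oma-1 had 55.3 in replicate 1 and 19.01 in replicate 2.

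Several large gene families held a smaller share of hosts than the 3.22% of all autosomal genes. The chemoreceptor list had 6 hosts of 1331 genes (0.451%): srx-41, srpa-72, srw-34, str-226, src-2 and sri-9. Of these, src-2 and srpa-72 only resemble chemoreceptor genes in name, so the list is not purely of that family. F-box genes had 1 of 305 (0.328%, fbxa-182) and nuclear hormone receptors 3 of 246 (1.22%). C-type lectins, nearest to the overall share, had 5 of 237 (2.11%). No host was found in the pooled list among 90 MATH and BTB genes, 67 cytochrome P450 genes, 63 UDP-glycosyltransferases, 45 homeobox ceh genes, 31 major sperm protein genes, 18 kinesins and dyneins and 10 muscle giant and sarcomere genes; in the shorter of these lists a count of 0 is near the overall share. Replicate 1's own list held 1 UDP-glycosyltransferase and 1 kinesin or dynein gene, and replicate 2's own list 1 cytochrome P450 gene.

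**Figure D4:**
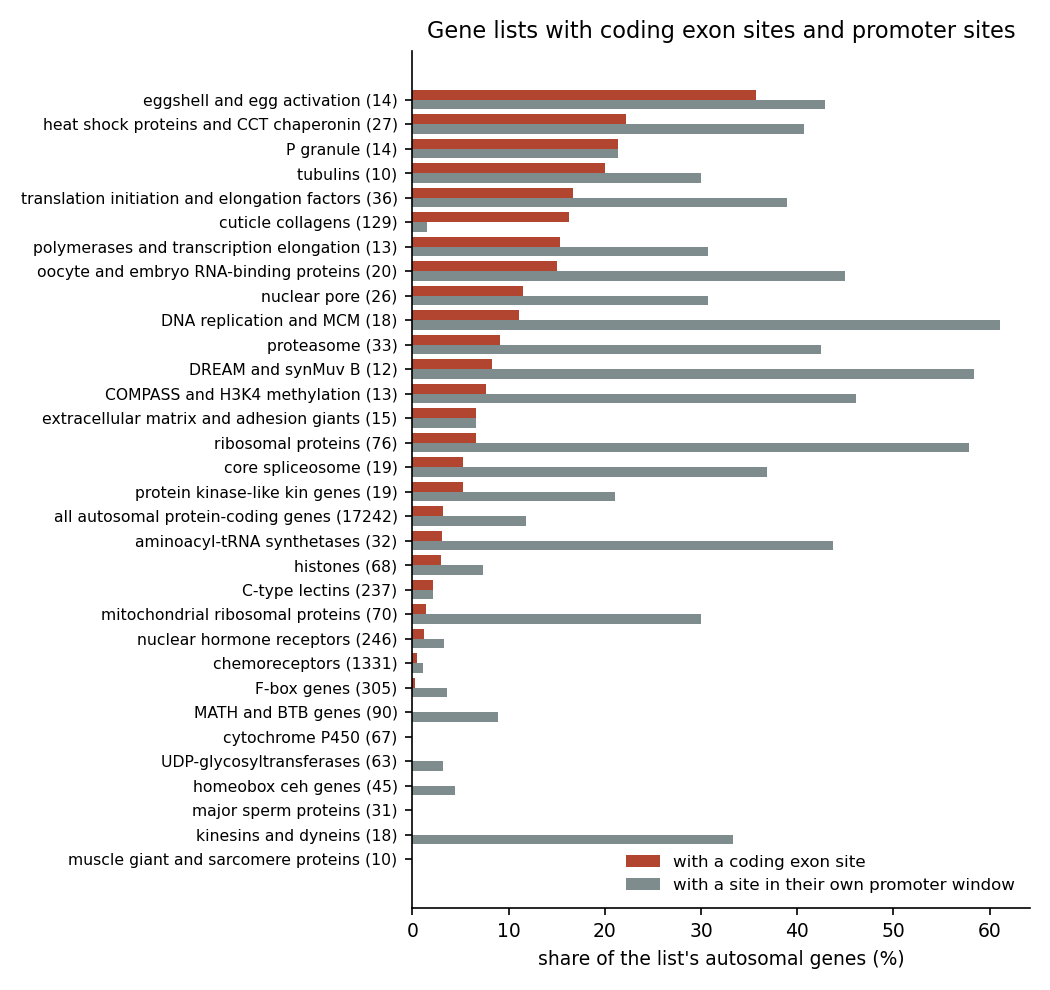
Share of the autosomal genes of each list with at least 10 members (x axis, percent) that had a coding exon site (red) or a site in their own promoter window (grey); the number of genes is in brackets on the y axis. Cuticle collagens stand at 16.3% for coding exon sites and 1.55% for promoter sites, while ribosomal protein genes stand at 6.58% and 57.9%, and all autosomal protein-coding genes at 3.22% and 11.8%.

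The sequence at coding exon summits was richer in G + C than coding sequence at large. The median over the 100 bp windows was 47% (quartiles 41% and 53%, range 29% to 77%), against 42% (38% and 47%) over 136586 windows tiled across the eligible autosomal coding sequence. Promoter sites among the 5000 had a median of 43%. Each replicate's own list also gave a median of 47%. At least 60% G + C was found in 51 sites (8.54%), 16 of them in the listed cuticle collagens, against 1.24% of the tiled windows. The median was 48% in windows of 50 bp, 44.5% in windows of 200 bp and 42.1% over whole regions, which extend into introns and UTRs. Sites in internal coding exons had a median of 47% on exons that averaged 42.5%, and sites in last coding exons 46% on 43.6%.

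**Figure D5:**
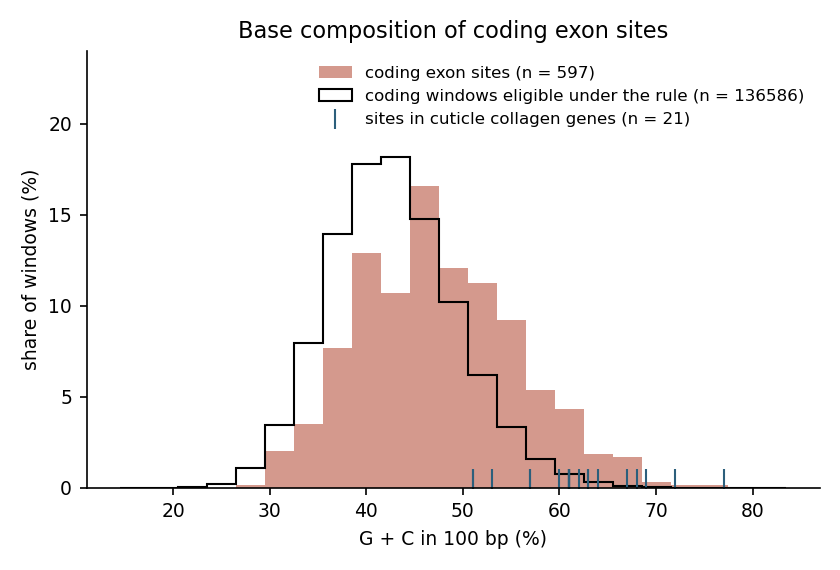
Share of 100 bp windows (y axis, percent) by G + C content (x axis, percent) for the 597 coding exon sites (filled) and 136586 windows tiled over the coding sequence eligible under the rule (line), with the 21 sites in the listed cuticle collagens as blue ticks. The sites' distribution lies to the right of the tiled windows, with medians of 47% and 42%, and the collagen ticks lie between 51% and 77%.

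The short AT-rich words searched were less frequent or about as frequent at coding exon sites as in other coding sequence, and were less frequent than at promoter sites. All words were searched on both strands of the 100 bp windows, and a match describes letters, not binding. AATT was in 45.4% of coding exon sites, against 54.5% of tiled coding windows, 62.3% of promoter sites and 56.0% of all 5000. AAATTT, which contains AATT, was in 5.86% against 5.90% of tiled windows and 14.8% of all 5000, and AAAAAA in 9.21% against 8.92% and 27.8%. A run of 10 or more A or T bases was in 10.4% of coding exon sites, against 7.76% of tiled windows and 25.8% of all 5000. GAGAGA was in 4.52% against 5.71% of tiled windows and 12.6% of all 5000, and GATAAG in 4.02% against 4.60% and 3.12%. The E-box CACGTG was in 33 sites (5.53%), against 2.81% of tiled windows and 3.42% of all 5000. GTTCGANNC, the core of the internal tRNA promoter, was in 5 sites (0.838%), against 1.09% and 4.46%. Of the 7 words, only CACGTG was more frequent at coding exon sites than in tiled windows by over 1 percentage point.

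The transgene's own locus held 2 coding exon sites. Both were in C44B9.2 on chromosome III, at 4896 and 3792 bp from athp-1, with pooled scores of 120 and 95.6. The first had 62.0 in replicate 1 and 68.4 in replicate 2; the other had 104.8 in replicate 1 and no matched summit in replicate 2. Between them lay an intronic site with a pooled score of 593, at rank 9. The transgene is directed at athp-1, and how much of its flanking DNA it carries is not known from the labels. Extra copies of this segment and binding to it therefore cannot be told apart. No coding exon site lay within 20 kb of unc-119, the mutated marker gene.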

How the data were processed

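Peak lists on ce11 from 2 biological replicates were used as deposited. The readme files deposited by the authors state that a replicate list came from that replicate and a control, the pooled list from both replicates, and the reproducible list from these 3. Each list of regions gives a signal score from the authors' peak caller, a deposited −log10 q-value and a summit offset; scores were the authors' own and were compared within a list. The aligner, the caller and the threshold were not given in the sources used here. Read depth is unknown, and so is the precision it gives.

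Genes came from Ensembl release 115 and sequence from RefSeq, both on WBcel235. A site was classed by its summit; its host is the gene whose coding sequence holds it, and exon order follows the transcript with the longest coding sequence there. Distance from the stop codon is to the last coding base before it. Backgrounds used the coding bases eligible under the rule, on the longest coding transcript of each gene. A replicate summit within 100 bp was matched. Python 3.11.15, numpy 2.4.6, pandas 2.3.3 and matplotlib 3.10.9 were used, and the scripts were tested on simulated data. Coordinates are 1-based.

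The sites, the 35 gene lists and the 7 words were chosen with earlier results of these data known, and no test was made. Named genes are hosts of the 20 strongest sites, hosts with 3 or more sites, up to 3 hosts of a list, genes at the bound of the 5000 and those with the largest rank differences; further collagen, chaperonin, ribosomal and eggshell hosts, the genes nearest to strong sites, and the analyses of stop codons, neighbouring genes, repeated words and collagen windows, were added after values were seen.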

Additional observations from a re-analysis of the deposited data

How the results depend on the processing

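No paired analysis was possible because there is 1 group. Of 99 alternatives over 8 measures, 63 kept a value within a bound and 36 moved it outside. For counts the bound was 1.5 times. For the share matched in both replicates it was a binomial interval over the sites, which are not replicates. For the other measures it was the standard deviation of the values from the 2 replicates' own lists. The stop codon and collagen measures, and sets of sites left out, were added after seeing the data. Most change came from how many regions were taken. With 1649, 2500 and 10000 regions there were 76, 159 and 1783 sites, of which 86.8%, 67.9% and 8.08% were matched in both replicates. The last coding exon held 67.1%, 56.6% and 27.1%, and 61.8%, 46.5% and 20.4% lay under 200 bp from the stop codon, in each case above the 16.2% and 13.0% of open coding bases. Collagen hosts numbered 2, 6 and 38, hosts with a promoter site made up 8.0%, 15.6% and 33.1%, and the median promoter distance was 785.5, 694 and 863 bp. The share of all genes with a promoter site and the share of all regions matched were computed only under the main setting. They are no background for values under other settings. At these sizes the share of all genes that were hosts was not computed either. The median G + C content with 1649 regions was 46%.

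With promoter windows of 1000 bp upstream and 500 bp downstream, the promoter distance was 799 bp, hosts with a promoter site 35.5% and the last coding exon's share 43.3%; with 200 bp to each side, the first 2 were 876 bp and 15.5%. Matching within 50 or 200 bp gave 16.2% or 31.2% in both replicates. The G + C median was 48%, 44.5% and 42.1% in 50 bp, 200 bp and whole regions. On a single replicate's list, values ran from 584 to 770 sites, 806 to 830 bp, 22.2% to 25.4% of hosts with a promoter site, 33.0% to 38.2% in the last coding exon and 25.5% to 29.8% under 200 bp from the stop codon, with 21 collagen hosts in either; the share matched in both was not computed there. Without the listed collagen hosts the last coding exon held 38.0%, and without sites near athp-1 38.8%. The causes of these shifts were not tested. Unknown depth and 2 replicates limit all of these values.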
